A study of Homo sapiens with 40 samples.

Results

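The accessible chromatin of BT474R cells was compared between 12 h of vehicle and the untreated starved state (baseline, 0 h). BT474R is a clone of BT474, a HER2-overexpressing breast carcinoma line, that was grown out under the anti-HER2 antibody trastuzumab and resists it, so every value for the resistant cells comes from 1 clone. Both groups had been starved of serum, baseline cells were collected at the end of that starvation, and the vehicle cells then spent 12 h more in fresh starvation medium with water, the solvent of the ligands. No ligand was present in either group. Each group had 2 ATAC-seq libraries, that is, 4 of the 40 libraries of a series that also followed EGF and heregulin (HRG) for 1, 12 and 24 h in BT474R and in the parental BT474. For each library the authors had deposited a list of peaks, intervals in which transposase insertions were enriched. Peaks of the 4 lists on chromosomes 1 to 22 and X that overlapped by at least 1 bp were merged into 53494 regions, against 76603 when all 40 lists were merged. A region was called lost if both baseline lists and neither vehicle list held a peak there, and gained in the opposite case. By this definition 5236 regions (9.79%) were lost and 19 (0.0355%) were gained. The vehicle lists were shorter, so the same count was made on the 32479 highest-scoring peaks of every list, the length of the shortest, and then gave 836 lost (2.30%) and 391 gained (1.08%) of 36305 regions.

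ATAC-seq marks promoters, enhancers and insulator sites, where nucleosomes are displaced by bound factors. In luminal breast cells many enhancers are bound by the pioneer factor FOXA1, which can open compact chromatin, together with GATA3, a zinc finger factor of the luminal lineage. CTCF, an architectural protein that anchors chromatin loops, holds sites that are largely shared between cell types. Withdrawal of serum removes growth factors from the medium, and the ERBB family (EGFR, ERBB2, ERBB3 and ERBB4) is the receptor system that the ligands of this study address. BT474 cells carry an amplification of ERBB2, the gene for HER2, on chromosome 17. Copy number was not analysed here.

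With equal numbers of peaks, the motif whose share differed most between lost regions and all regions, of 18 motifs, was the FOXA consensus TGTTTNC, searched on both strands in the 201 bp around each summit. Of the 836 lost regions, 37.8% held it, against 23.8% of all 36305. These shares include promoters, which made up 15.7% of lost and 43.5% of all regions. Outside promoters the FOXA shares were 38.6% and 32.7%, and GATA differed slightly more, at 16.5% and 9.81%. The windows shown are those of the lost regions, among the 5 of highest rank in each version of the lists, that held a match, and 1 of a gained region next to IKZF3. They were read from the GRCh38 reference on the plus strand, and capitals mark each match on either strand.

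PARD3B, chr2:204945601-204945801: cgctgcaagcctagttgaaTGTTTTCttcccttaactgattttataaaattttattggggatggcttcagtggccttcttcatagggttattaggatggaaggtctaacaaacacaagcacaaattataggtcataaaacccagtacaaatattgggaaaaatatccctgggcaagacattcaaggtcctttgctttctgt

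TENM4, chr11:79060112-79060312: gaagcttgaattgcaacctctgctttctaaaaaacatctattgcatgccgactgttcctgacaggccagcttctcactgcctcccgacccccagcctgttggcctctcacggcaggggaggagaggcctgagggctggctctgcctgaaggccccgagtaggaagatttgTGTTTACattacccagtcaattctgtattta

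PREP, chr6:105609537-105609737: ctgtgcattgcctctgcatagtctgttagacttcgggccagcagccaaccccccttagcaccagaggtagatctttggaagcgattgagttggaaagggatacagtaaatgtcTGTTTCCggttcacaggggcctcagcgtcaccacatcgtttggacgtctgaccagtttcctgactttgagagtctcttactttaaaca

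CFAP20DC, chr3:59446793-59446993: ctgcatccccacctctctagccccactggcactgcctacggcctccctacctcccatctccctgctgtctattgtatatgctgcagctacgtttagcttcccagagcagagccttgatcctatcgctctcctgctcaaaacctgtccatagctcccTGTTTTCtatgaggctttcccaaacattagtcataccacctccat

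UBE2V1, chr20:50086433-50086633: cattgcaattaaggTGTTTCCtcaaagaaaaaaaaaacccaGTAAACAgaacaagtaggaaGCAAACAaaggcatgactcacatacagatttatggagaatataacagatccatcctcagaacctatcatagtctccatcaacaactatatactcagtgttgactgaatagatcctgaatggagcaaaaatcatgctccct

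DMD, chrX:31376483-31376683: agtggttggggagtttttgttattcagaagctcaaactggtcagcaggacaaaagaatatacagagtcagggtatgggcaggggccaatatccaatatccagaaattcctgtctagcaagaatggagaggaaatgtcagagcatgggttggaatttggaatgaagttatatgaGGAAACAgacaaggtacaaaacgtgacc

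IKZF3, chr17:39776326-39776526: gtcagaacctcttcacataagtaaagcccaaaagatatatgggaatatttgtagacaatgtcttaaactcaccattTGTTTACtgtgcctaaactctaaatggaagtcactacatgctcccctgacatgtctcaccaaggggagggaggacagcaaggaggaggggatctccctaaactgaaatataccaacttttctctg

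The UBE2V1 window held 3 matches, on both strands, and each of the others held 1. The gained region of highest score lay in an intron, 28.1 kb downstream of the nearest annotated transcript start of PMEPA1, which encodes a feedback inhibitor of TGF-beta signalling. Its window had no FOXA match. It is shown, chosen after its values were seen, with its match to the palindromic TFAP2 consensus GCCNNNGGC in capitals, and its GC content was 68.7%, against 36.8% to 52.7% in the windows above.

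PMEPA1, chr20:57662407-57662607: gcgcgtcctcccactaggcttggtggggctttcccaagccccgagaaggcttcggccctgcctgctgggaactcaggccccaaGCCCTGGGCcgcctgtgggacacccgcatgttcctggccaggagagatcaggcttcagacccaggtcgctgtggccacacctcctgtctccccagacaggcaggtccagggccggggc

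The vehicle libraries held fewer peaks than the baseline libraries. The baseline lists held 53007 and 44546 peaks (48776.5 ± 5983, SD, n = 2) and the vehicle lists 32479 and 40331 (36405 ± 5552, SD, n = 2), so the vehicle mean was 74.6% of baseline. Both vehicle lists were shorter than both baseline lists. The covered length was 35.2 and 26.1 Mb at baseline and 19.7 and 24.1 Mb after vehicle. Peaks within 1 kb of an annotated transcription start (promoter peaks) made up 36.9% and 38.1% of the baseline lists and 46.3% and 42.0% of the vehicle lists, a difference of 6.66 percentage points. With 2 libraries against 2, an exact permutation test allows no p below 0.333, and all 3 differences gave that value (two-sided; adjusted over 5 tests, p = 0.333). With equal numbers of peaks the promoter shares differed by 1.12 points (exact permutation p = 1.00).

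Whether 12 h differed from the other times was asked in the 12 ligand-treated BT474R libraries, none of which entered the definition of lost and gained. EGF libraries held 38205 and 37476 peaks at 12 h, and 51503, 47474, 52126 and 51080 at 1 and 24 h. HRG libraries held 45808 and 42604 peaks at 12 h, and 52162, 56334, 55289 and 44351 at the other times. The mean at 12 h differed by -10267 peaks (exact permutation test within EGF and within HRG, two-sided, p = 0.00889 over 225 arrangements, of which the smallest possible p is 0.00444; adjusted p = 0.0444). When labels were permuted only within replicate numbers the exact permutation p was 0.0123, the difference being the same, and its adjusted value was no longer below 0.05. The sources used here give no harvest or library preparation day, so time and preparation cannot be told apart. In BT474 the vehicle 12 h lists held 49386 and 49767 peaks and the baseline lists 49997 and 47785, which overlapped. Between the lines, the change from baseline differed by -13057 peaks (BT474R less BT474; exact permutation test, two-sided, 36 arrangements, p = 0.222; adjusted p = 0.333). The smallest p that this test allows is 0.0556, so it could not pass 0.05 and does not decide whether the lines differ.

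**Figure D1:**
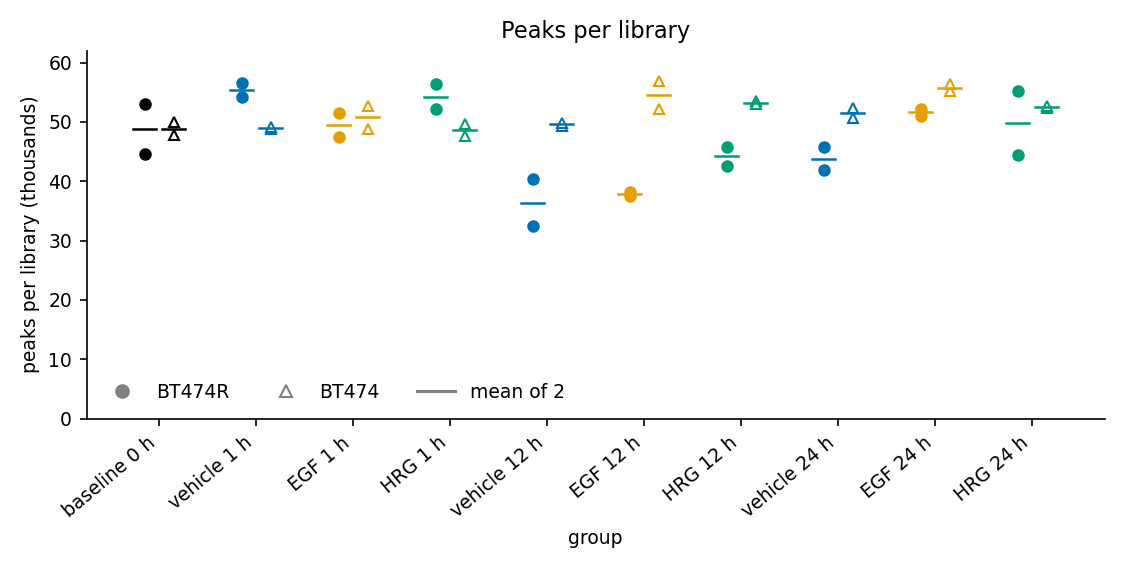
Peaks per library on chromosomes 1 to 22 and X (y axis, in units of 1000) for each group (x axis), with BT474R as filled circles, BT474 as open triangles and the mean of 2 libraries as a line. The BT474R vehicle 12 h libraries, at 32479 and 40331, lie below both baseline libraries, and the EGF 12 h libraries lie at 38205 and 37476.

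The vehicle lists were nearly contained in the longest baseline list. Baseline replicate 1 covered 99.1% and 99.0% of the bases of the vehicle lists, whereas vehicle replicates 1 and 2 covered 55.3% and 67.8% of the bases of baseline replicate 1. Replicates were not always closer to each other than to the other group. Baseline replicate 2 shared 80.0% of covered bases (Jaccard index) with vehicle replicate 2, above the 71.7% between the baseline replicates and the 77.3% between the vehicle replicates. Peak lists hold no read totals, so sequencing depth was unknown, and the lack of a peak means that the authors' caller reported none. The lowest score was 200 in all 4 lists, and weaker peaks were not listed.

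The regions lost in the lists as deposited were small, weak and distal. Their median width was 336.5 bp against 517 bp for all regions, their median GC content 46.8% against 53.7%, and 13.3% lay in promoters against 36.6%. Introns held 52.8% of them and intergenic sequence 30.1%. Their peaks ranked low where present: the median rank percentile of the peak score over the baseline lists, 100 being the highest, was 16.2, against 67.6 for regions with a peak in all 4 lists. In 83.8% both baseline scores were under 400. Of the regions in both baseline lists, a further 6697 had a peak in 1 vehicle list, and 30470 in both. The lost share ran from 6.16% of regions on chromosome 19 to 12.7% on chromosome 18.

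**Figure D2:**
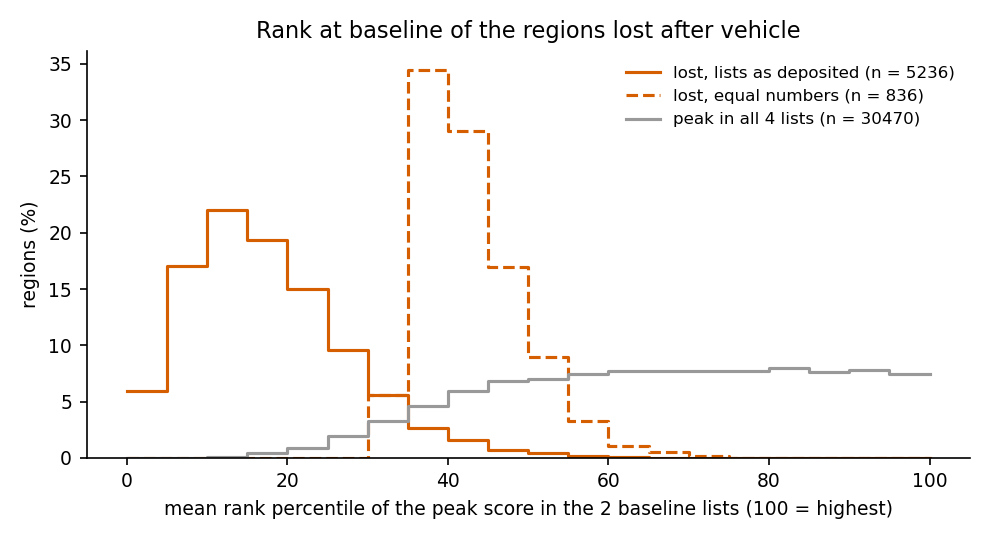
Mean rank percentile of the peak score in the 2 baseline lists (x axis, 100 is the highest) as a share of regions (y axis, percent, bins of 5), for lost regions of the lists as deposited (solid), lost regions with equal numbers of peaks (dashed) and regions with a peak in all 4 lists (grey). The median of the solid line is 16.2 and that of the dashed line 41.4, since the lowest peaks were removed before the second count.

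A few lost regions were above the middle of their list, 2.79% having a baseline percentile over 50 in at least 1 library. The highest was chr21:45606107-45607356, a 1250 bp region at an annotated transcript start 33.1 kb upstream of the nearest transcript start of SLC19A1, the reduced folate carrier. It ranked 17595 of 53007 and 15288 of 44546 at baseline, counted from the highest score, and had no peak in either vehicle list, but it had a peak in 14 of the other 16 BT474R libraries. The next were intronic regions nearest to PARD3B, a cell polarity gene, and TENM4, which encodes a teneurin, a promoter region of the zinc finger gene ZNF846 and an intergenic region nearest to PREP, a prolyl endopeptidase. The PARD3B region ranked 19157 and 19162 at baseline and was found in 8 of the other 16 BT474R libraries. The TENM4, ZNF846 and PREP regions were found in 14, 14 and 13 of them, and each of the 4 was found in all 20 BT474 libraries.

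With equal numbers of peaks, the lost regions were stronger. The last peak kept scored 436 and 315 in the baseline lists and 200 and 278 in the vehicle lists. The 836 lost regions had a median baseline percentile of 41.4 and a median width of 563 bp, and 15.7% lay in promoters against 43.5% of all regions. Of them, 221 (26.4%) were also lost in the lists as deposited, which is 4.22% of the 5236. The others had a peak below the limit in vehicle replicate 2. The list of vehicle replicate 1 was kept whole, so no lost region could have a peak there. The intronic region nearest to REELD1 led, at ranks 14265 and 14708 at baseline against no peak and rank 39304 after vehicle. An intronic region nearest to UBE2V1, which encodes a partner of a ubiquitin-conjugating enzyme, stood at 10293 and 20953 against no peak and 33005. A region of DMD, the dystrophin gene, stood at 19273 and 14562 against no peak and 36802. That the peak missing altogether was that of vehicle replicate 1, the library with the fewest peaks, follows from the definition.

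The 19 gained regions of the lists as deposited all lay in 2 short segments. Of these, 10 lay within 1.15 Mb of chromosome 17 (chr17:38846203-39995938) that holds ERBB2, and 9 within 0.798 Mb of chromosome 20 (chr20:57178124-57976026) from BMP7, a bone morphogenetic protein gene, past PMEPA1. On chromosome 17 they extended from 0.841 Mb before to 0.307 Mb after the outermost annotated start of ERBB2. The segments together held 327 merged regions (0.611% of all), of which 5.81% were gained and 1.22% were lost. Elsewhere in the genome the gained share was 0%. The segments were delimited by these same regions, so the contrast is a description.

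The gained regions on chromosome 17 were nearest to RPL23, LASP1NB, PLXDC1, STARD3, IKZF3, GSDMB and PSMD3. STARD3 encodes a cholesterol-binding protein of late endosomes and is commonly co-amplified with ERBB2, IKZF3 encodes a lymphoid zinc finger factor, GSDMB a gasdermin and PSMD3 a proteasome subunit. The PSMD3 region had scores of 484 and 230 in the vehicle lists. It reached the promoter window of PSMD3, and the region at LASP1NB (256 and 281) lay in the promoter of that gene. The region nearest to IKZF3 (307 and 324) lay 29.5 kb downstream of the nearest IKZF3 start. It was within 1 kb of an annotated start of another gene, not a protein-coding one. A region shared by the promoters of GSDMB and ORMDL3, a regulator of sphingolipid synthesis, scored 301 and 248 and was found in none of the other 36 libraries. On chromosome 20 the region in PMEPA1 scored 850 and 290, and a BMP7 intron 338 and 287. The other scores of the 19 lay between 200 and 283, close to the lowest score listed. These regions were wide, with a median of 814 bp, and had no FOXA match.

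Most of the 19 had a peak in other BT474R libraries as well. They were found in a median of 7 of the other 16 BT474R libraries, and only 2 in none of them. The EGF 12 h libraries held 14 and 10 of the 19, the vehicle 1 h libraries 12 and 9, and the vehicle 24 h libraries 5 each. In BT474, 12 of the 19 had no peak in any of the 20 libraries.

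The peaks in these segments that lay outside the 19 gained regions were also counted per library, since the gained regions differ by definition. On chromosome 17 there were 166 and 187 such peaks at baseline and 187 and 181 after vehicle, which overlapped. On chromosome 20 there were 119 and 125 at baseline and 121 and 125 after vehicle, which overlapped as well. The covered length outside the gained regions was 309 and 335 kb against 368 and 344 kb on chromosome 17. On chromosome 20 it was 129 and 130 kb against 138 and 134 kb. The groups did not overlap in either, and how often other segments lack such overlap was not counted. The lists as a whole were shorter after vehicle, so these peaks made up 0.313% and 0.420% of the baseline lists and 0.576% and 0.449% of the vehicle lists on chromosome 17. The EGF 12 h libraries, which were also short, held 176 and 178 such peaks there and 125 each on chromosome 20. Outside the gained regions the vehicle 1 h libraries covered 297 and 301 kb on chromosome 17 and 144 and 131 kb on chromosome 20. As the segments were placed by the gained regions, these values are a description.

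The ranks of regions present in all 4 lists were compared in the same segments. Scores were ranked within the 30470 such regions of each library. In the chromosome 17 segment 49 of 128 regions (38.3%) ranked higher in both vehicle libraries than in both baseline libraries and 3 (2.34%) ranked lower. In that of chromosome 20, 34 of 96 (35.4%) ranked higher and 2 (2.08%) lower. Over all 30470 regions, 6863 (22.5%) ranked higher and 4339 (14.2%) lower. As the segments were placed by regions gained in the same 4 lists, this contrast is a description as well. The median rank percentile in the first segment was 74.1 and 83.2 at baseline and 90.2 and 84.8 after vehicle, whereas in the second the values overlapped, at 59.0 and 71.6 against 70.4 and 68.4.

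**Figure D3:**
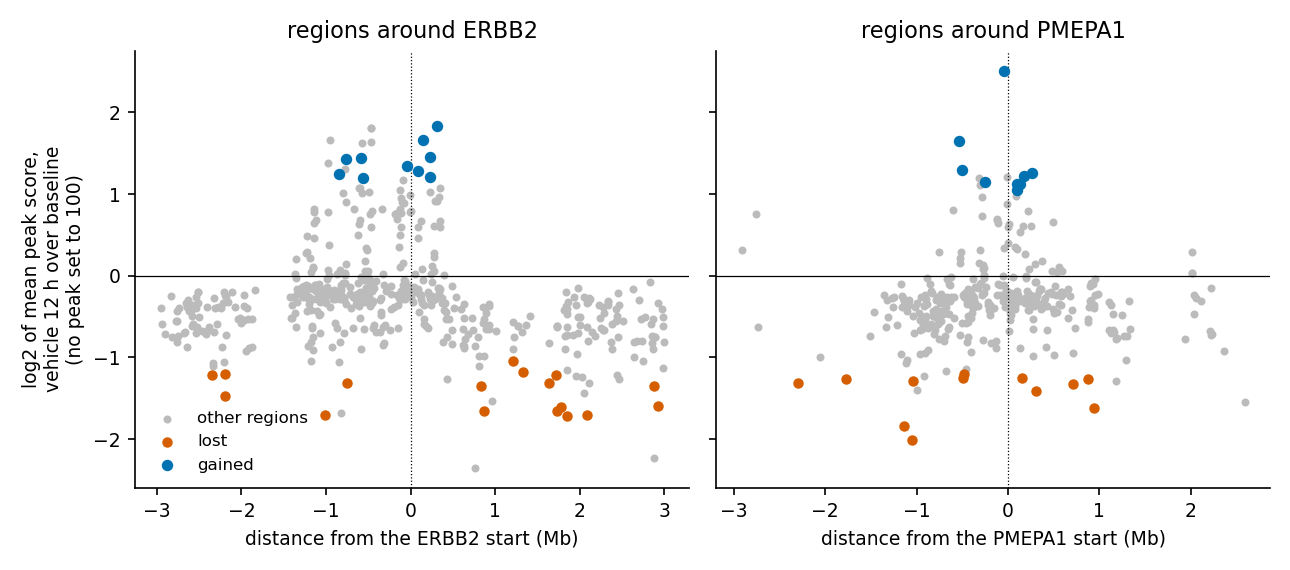
Ratio of the mean peak score after 12 h of vehicle to that at baseline (y axis, log2, a list without a peak set to a score of 100) for merged regions within 3 Mb of the outermost annotated start of ERBB2 or PMEPA1 (x axis, distance in Mb), with gained regions in blue, lost regions in orange and others in grey. Of 520 regions around ERBB2, 10 were gained, between -0.841 and 0.307 Mb, and 17 were lost, and of 342 around PMEPA1, 9 were gained and 12 lost.

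The number of gained regions and their place depended on single lists and on the merging. Without baseline replicate 1, which left baseline replicate 2 alone, 238 regions were gained and 22 of them lay in the segments. Without vehicle replicate 1 there were 95, with 32 in the segments. Without baseline replicate 2 or vehicle replicate 2 there were 44 and 45, of which 38 and 40 lay there. Peaks trimmed to 200 bp on each side of the summit gave 266 gained regions, 25 of them in the segments.

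With equal numbers of peaks the gained regions were spread over the genome and were mostly regions that baseline lists also held below the limit. Of the 391, 363 (92.8%) had a peak in both full baseline lists and 4 (1.02%) in neither. Their median width was 282 bp and their median percentile in the vehicle lists 17.0. The segments held 20 of them (5.12%) in 294 regions, a gained share of 6.80% against 1.03% elsewhere, and none of their regions was lost. The 5 of highest rank lay in or near these segments. They were nearest to PCGF2, a Polycomb gene, STAC2, MLLT6 and IKZF3 on chromosome 17 and PMEPA1 on chromosome 20. The PCGF2 region stood at ranks 51442 and 41580 at baseline and 10800 and 13833 after vehicle, where 1 is the highest score. The MLLT6 region stood at 46192 and 37637 against 5950 and 29263, and the IKZF3 region at 34128 and 40042 against 19799 and 19869. The STAC2 region had no peak in baseline replicate 1 and rank 36623 in replicate 2, and stood at 8014 and 22265 after vehicle.

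Sequence content differed between lost and gained regions. Outside promoters and with equal numbers of peaks, the FOXA consensus was found in 38.6% of 705 lost, 27.9% of 297 gained and 32.7% of all 20522 regions. The GATA consensus AGATAA followed the same order, at 16.5%, 5.72% and 9.81%. CTCF took the opposite one, with 1.13% of lost, 13.5% of gained and 4.82% of all regions, which is 8 lost and 40 gained regions. AP-1 (TGANTCA), the consensus of FOS and JUN factors, was found in 10.9%, 17.5% and 16.4%. GC content moved with these shares: its median was 46.8% in lost, 54.2% in gained and 49.8% in all distal regions, and its part in the motif shares was not tested.

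Each of the 4 libraries was left out in turn, as an alternative added after the values were seen. FOXA then ran between 33.6% and 39.4% in lost and between 20.7% and 32.2% in gained regions, GATA between 14.2% and 15.6% and between 4.61% and 8.66%, and CTCF between 1.59% and 2.64% and between 9.82% and 13.4%. Without baseline replicate 2 the FOXA shares nearly met, at 33.6% of lost and 32.2% of gained regions. The share of all distal regions, with the 4 lists, was 32.7%. In the lists as deposited the lost distal regions held FOXA in 34.3%, GATA in 14.2% and CTCF in 4.72%, against 31.7%, 10.3% and 5.74% of all distal regions. Of the 14 gained distal regions of these lists, 0 held the CTCF motif, but so few regions cannot show whether their share differed. The higher CTCF share of gained regions was seen with equal numbers, and the lists as deposited do not decide it. Regions are not replicates of the cultures, and no test was made over them.

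**Figure D4:**
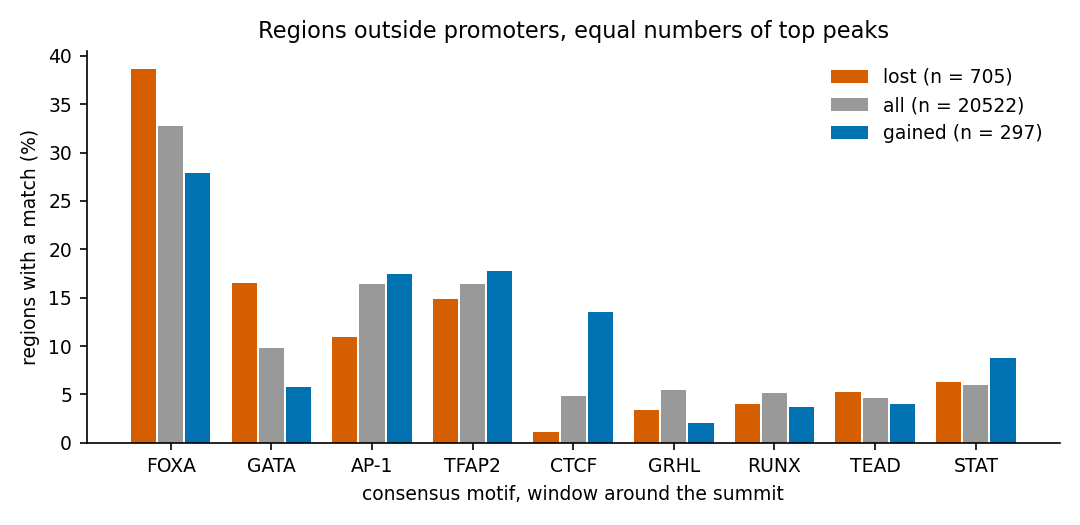
Share of regions outside promoters (y axis, percent) with a match to each consensus motif in the 201 bp around the summit (x axis), for lost, all and gained regions with equal numbers of top peaks. FOXA runs from 38.6% in lost to 27.9% in gained regions and GATA from 16.5% to 5.72%, while CTCF runs from 1.13% to 13.5%.

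The lost and gained regions were then followed through the other BT474R libraries. In the lists as deposited, the vehicle 1 h libraries held 93.9% and 90.8% of the 5236 lost regions, the EGF 12 h libraries 1048 and 928 of them, and the HRG 12 h libraries 58.2% and 41.1%. After 24 h the vehicle libraries held 36.6% and 55.1%. The EGF 12 h lists were also the shortest of the other 16 BT474R lists. Only 32 regions (0.611%) were in none of the other 16 BT474R libraries, and 1853 (35.4%) were in none of the 4 ligand libraries at 12 h.

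With equal numbers the shares still differed between groups of libraries. The vehicle 1 h libraries held 58.6% and 62.1% of the 836 lost regions and the EGF 12 h libraries 28.3% and 26.7%, while HRG 12 h held 40.1% and 41.6% and vehicle 24 h 39.6% and 42.3%. The gained regions were found most often after EGF at 12 h (56.5% and 57.5%), and the vehicle 1 h libraries held 37.6% and 29.7%. In vehicle 24 h libraries the shares were 52.2% and 50.9%. The HRG libraries held 49.6% and 51.2% of the gained regions at 12 h, and 34.8% and 55.2% at 24 h. None of these libraries entered the definition of lost and gained. In BT474, the vehicle 12 h libraries held 37.4% and 37.2% of the lost regions and the baseline libraries 42.3% and 37.9%. Of the gained regions, the BT474 vehicle 12 h libraries held 42.2% and 40.7% and the BT474 baseline libraries 36.3% and 37.9%.

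**Figure D5:**
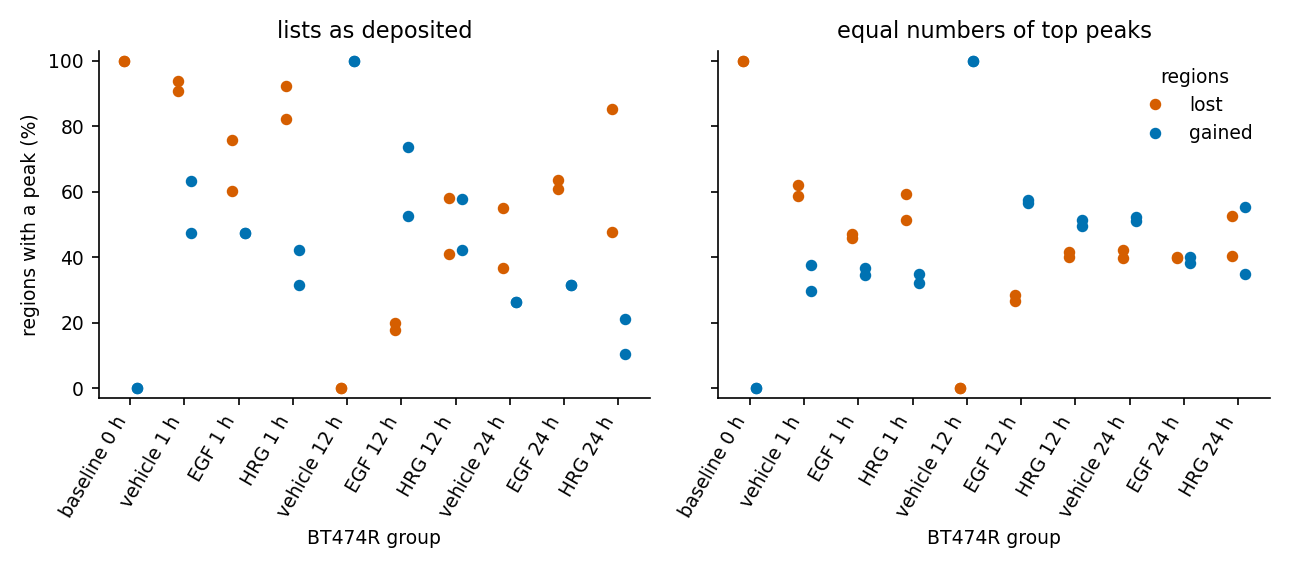
Share of lost (orange) and gained (blue) regions with a peak (y axis, percent) in each of the 20 BT474R libraries (x axis, 2 points per group), for lists as deposited on the left and equal numbers of peaks on the right. Baseline and vehicle 12 h stand at 0 or 100 by definition, and with equal numbers the EGF 12 h libraries hold 28.3% and 26.7% of lost and 56.5% and 57.5% of gained regions.

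The receptor genes ERBB2, EGFR and ERBB3 had a promoter peak in all 4 lists, and 8 of the 15 genes of ERBB receptors and ligands did. The promoter of ERBB2 held 1 of the highest peaks of every list, at ranks 2, 3, 2 and 2 (baseline replicates 1 and 2, then vehicle replicates 1 and 2). EGFR stood at ranks 1396, 2252, 1720 and 1466 and ERBB3, a receptor of heregulin, at 949, 1513, 1322 and 1187. ERBB4, the other heregulin receptor, had no promoter peak in the 4 lists. The promoter of EGF, a ligand of EGFR, was the only one of the 213 genes in 10 pathway and lineage lists whose promoter peaks were lost altogether. It held weak peaks at ranks 43656 and 40347 at baseline and none after vehicle, and it had a peak in all 16 other BT474R libraries. Of the 213 genes, 171 had a promoter peak in all 4 lists and 24 in none.

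Among luminal genes, PGR, which encodes the progesterone receptor, lost 1 of 3 promoter regions. That region (chr11:101129201-101129947) stood at ranks 24005 and 37845 at baseline and was absent after vehicle, while the strongest PGR promoter peak stayed at ranks 2198 and 3572 against 2495 and 2818. With equal numbers, a second PGR region holding a FOXA match (28474 and 29349 against no peak and 39294) and a region at XBP1, a transcription factor of the unfolded protein response (21202 and 19670 against no peak and 36224), were lost. The main XBP1 promoter peak ranked between 1405 and 1666 in all 4 lists. ADM, a hypoxia-induced peptide hormone, and PHGDH, the first enzyme of serine synthesis, each lost 1 secondary promoter region, both weak. A region of the ERBB3 promoter counted as gained with equal numbers, but it had a peak in all 4 full lists and in all 16 other BT474R libraries. By rank it stood higher in both vehicle lists, at 35275 and 35659 at baseline and 29966 and 28710 after vehicle. Its scores, which scale with sequencing depth, were 389 and 278 at baseline and 226 and 328 after vehicle, which overlapped. The vehicle lists were shorter, and its rank percentiles overlapped as well. These values do not decide whether its level was higher after vehicle.

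The share of lost regions near list genes was read against that near any gene. Within 100 kb of the nearest protein-coding start, 8.76% of 47103 regions were lost as deposited, and 80 of 1044 (7.66%) near list genes. The share was 12 of 194 (6.19%) for immediate early and MAP kinase feedback genes, 6 of 51 (11.8%) for ERBB receptors and ligands, 16 of 192 (8.33%) for luminal genes, 11 of 102 (10.8%) for FOXO targets and autophagy genes and 18 of 192 (9.38%) for glycolysis and hypoxia genes. It was 2 of 62 (3.23%) for G1 to S and mitosis genes, 6 of 101 (5.94%) for sterol and fatty acid synthesis genes, 3 of 55 (5.45%) for basal and mesenchymal genes, 6 of 59 (10.2%) for integrated stress response genes and 0 of 36 for interferon response genes. With equal numbers, 1.99% of regions near any gene were lost, and 15 of 738 (2.03%) near list genes. The share was 2 of 37 (5.41%) for ERBB receptors and ligands, 6 of 155 (3.87%) for luminal genes, 1 of 41 (2.44%) for integrated stress response genes, 3 of 131 (2.29%) for immediate early and feedback genes, 1 of 45 (2.22%) for G1 to S and mitosis genes and 2 of 132 (1.52%) for glycolysis and hypoxia genes. It was 0 of 70 for sterol and fatty acid, 0 of 69 for FOXO and autophagy, 0 of 33 for basal and mesenchymal and 0 of 25 for interferon response genes. With equal numbers, 10 of the 738 regions near list genes were gained (1.36%), against 1.12% of regions near any gene. Among them were 2 of 155 (1.29%) near luminal genes (EPCAM and CLDN4) and 1 of 37 (2.70%) near an ERBB gene (ERBB3). The 6 luminal losses were 2 regions nearest to GRHL1, an epithelial transcription factor, and 1 each nearest to TFAP2A, TFAP2C, PGR and XBP1.

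Complete loss of a promoter peak was rare among all protein-coding genes. Of 19970 genes, 11471 (57.4%) had a promoter peak in all 4 lists, 166 (0.831%) lost it and 0 gained it. With equal numbers 36 (0.180%) lost and 28 (0.140%) gained it. Lost promoter regions of highest rank were, as deposited, those of ZNF846, SLC25A18, LHFPL1, EHMT1, a histone H3 lysine methyltransferase, and GCHFR. With equal numbers they were those of ALDH3B2, ZNF846, FXYD3, LFNG, a modifier of Notch receptors, and XBP1. The ALDH3B2 region ranked 10508 and 24637 at baseline, was absent in vehicle replicate 1 and ranked 38071 in replicate 2. Promoter regions gained with equal numbers were led by PGAP3 and PLXDC1 on chromosome 17, SPO11 on chromosome 20, TMEM132A and PXN, which encodes the focal adhesion adaptor paxillin. The PGAP3 region had no peak in baseline replicate 1 and rank 32740 in replicate 2, and ranked 20644 and 22041 after vehicle. The SPO11 and PXN regions had a peak in both full baseline lists. Their scores overlapped, at 402 and 314 against 349 and 345 for SPO11 and 399 and 254 against 261 and 377 for PXN. The SPO11, TMEM132A and PXN regions had a peak in all 16 other BT474R libraries.

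Genes next to many lost regions included AUTS2, HIVEP3, KALRN and NEDD4L. AUTS2 was nearest to 11 lost regions of 53 within 100 kb, HIVEP3 to 8 of 32, and KALRN and NEDD4L, the latter a ubiquitin ligase of membrane transporters, to 7 each of 26 and 29. Of 3160 genes with a lost region nearby, 683 had at least 2. With equal numbers RFLNA, CD9, a tetraspanin, and ZFAND3 had 3 each. ARHGAP23 on chromosome 17 (4 of 22) and RBM38 on chromosome 20 (3 of 14) led the genes next to gained regions.

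The rank of the peak score was tested in the 30470 regions with a peak in all 4 lists. By limma on normal scores of the ranks, 0 regions were higher (0%) and 0 lower (0%) at a Benjamini-Hochberg adjusted p below 0.05, and the smallest adjusted p was 0.649. At an unadjusted p below 0.05 there were 583 higher and 1192 lower regions, 5.83% of those tested. A prior variance that follows the mean score, added after the data were seen, gave 0 higher and 15 lower, and median-centred log2 scores gave 6 higher and 22 lower.

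The labelled cell type was checked against markers. All 8 luminal markers (EPCAM, CDH1, KRT8, KRT18, KRT19, GATA3, FOXA1 and ERBB2) had a promoter peak in all 40 libraries. KRT14, COL1A2, PECAM1, PTPRC and CD3E, markers of basal cells, fibroblasts, endothelium and leukocytes, had none in any. Among other markers, VIM, COL1A1 and CDH5 promoters had a peak in all 40 libraries, KRT5 and PDGFRB in none of the 4 lists compared here. TP63 stood at ranks 38925, 34380, none and 38128, and ZEB1 had a peak in baseline replicate 1 alone.

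The same count was made for the other vehicle contrasts, 2 of which share the BT474R baseline libraries. In BT474, 12 h of vehicle gave 739 lost (1.37%) and 888 gained (1.65%) regions as deposited, and 898 (1.72%) and 704 (1.35%) with equal numbers. In BT474R, 1 h of vehicle gave 163 lost (0.276%) and 2637 gained (4.47%), and 24 h gave 2574 (4.76%) and 147 (0.272%). With equal numbers these became 938 lost (1.89%) and 981 gained (1.98%) at 1 h, and 1276 (2.72%) and 760 (1.62%) at 24 h. The lists were then cut to 44546 peaks at 1 h and 41833 at 24 h, so the counts are not on 1 scale. No test of these counts between contrasts was made.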

How the data were processed

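Chromatin accessibility was measured by ATAC-seq in 2 libraries per group. Per the study's methods and the submitters' processing notes, the authors trimmed reads with Trim Galore 0.6.6, mapped them to GRCh38.p13 with BBMap and called peaks per library with Genrich, without mitochondrial reads and blacklisted regions. The sources used here do not give Genrich's options. The authors deposited for each peak a signal, the area under its significance curve (the peak score used here), and a −log10 p and a −log10 q, which were not used. Because scores scale with sequencing depth, they served only as ranks or limits, apart from the log2 alternative and the plot around ERBB2 and PMEPA1.

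Groups came from the labels. Peaks were merged, annotated with GENCODE release 44 on a GRCh38 reference whose chromosome ends no peak passed (0), and searched for 18 consensus motifs. CTCF, NRF1, IRF, steroid receptor and estrogen receptor motifs had 10 or more letters. Other sequences held 24 to 36 peaks per library and were left out. Each replicate was 1 library. Per the study's methods treatments were done in duplicate on cells plated per well, and p-values measure the spread between these libraries. Exact permutation tests were adjusted over 5 tests by the Benjamini-Hochberg method. Ranks were tested with limma 3.58.1 (lmFit, eBayes) in R 4.3.3, and the script was checked on simulated data. Other steps used pysam 0.24.0, pandas 2.3.3, scipy 1.17.1, numpy 2.4.6 and matplotlib 3.10.9 in Python 3.11.15.

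The comparison, the gene and motif lists and the tests were chosen with earlier results of these data known. Named were the 5 lost and 5 gained regions of highest mean rank percentile in each version of the lists, list genes and protein-coding genes with such a region in their promoter, the 5 genes nearest to most of them, markers, ERBB2, EGFR and ERBB3. Some genes that this rule names are not reported here. Alternatives were a score of at least 400, all sequences, a replicate block, each library left out, promoters within 3 kb, equal numbers of peaks, 50% coverage, trimmed peaks, regions merged from all 40 lists, and, for the ranks, log2 scores, scores per width, summed scores and a trended prior variance. Reads were not analysed here, and the study's own differential analysis was not repeated.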

Additional observations from a re-analysis of the deposited data

How the results depend on the processing

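The differences in peak number, covered length and promoter share, and the ligand and cell line contrasts kept their direction under all 27 alternatives, and 26 kept their side of the threshold. With 2 libraries against 2 no such test can pass 0.05, nor can the cell line test, so for these it says nothing of significance. Leaving out 1 library gave differences of -16602 to -8141 peaks, -13.3 to -4.16 Mb and 4.55 to 8.76 percentage points of promoter peaks. A covered length compared at equal numbers differed by -4.52 Mb.

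Across regions, the difference between the baseline replicates and that between the vehicle replicates had a correlation of -0.0273. This single correlation showed no shared deviation of same-numbered libraries in these groups. It included no ligand library and cannot decide whether the replicate numbers pair the libraries. With a replicate block the differences were -12372 peaks, -8.74 Mb and 6.66 points (exact sign-flip permutation test, p = 0.5 each, the smallest it allows), the ligand test gave -10267 peaks (exact permutation p = 0.0123), and limma gave 0 regions in either direction.

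Counts of regions depended on the settings. With a score of at least 400, 3223 regions were lost and 5 gained as deposited, and 421 and 256 with equal numbers. With 50% coverage 31 were gained as deposited and 1467 lost with equal numbers. Trimmed peaks gave 266 and 700 gained. Leaving out 1 library gave 5370 to 14282 lost and 44 to 238 gained as deposited, the most lost without baseline replicate 2 (14282) and vehicle replicate 2 (11804), and 1310 to 2346 lost and 906 to 1584 gained with equal numbers. The definition is looser with 1 library in a group. Median-centred log2 scores gave 6 higher and 22 lower regions by limma, and the trended prior variance 15 lower. Left out 1 library at a time, the share of gained distal regions with the AP-1 motif ran from 13.5% to 19.6% and fell below that of all regions without baseline replicate 1 (13.5%) and without vehicle replicate 2 (16.2%).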
